A study of Mus with 18 samples.

Results

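The Kruppel-like factors (KLFs) are transcription factors that bind GC-rich and CACCC-type promoter and enhancer elements through zinc fingers at their C-terminus, and differ mainly in the N-terminal parts that recruit activators or repressors. Klf2 and Klf4 are known as genes induced by shear stress and stress signalling in many cells, Klf4 and Klf5 as regulators of epithelial growth and differentiation, Klf6 and Klf10 as early response genes of injury and TGFβ signalling, and Klf9 and Klf13 as relatives of the SP factors that often repress transcription. In the eye, Klf4 and Klf5 are best known from the surface epithelium of the cornea and from the lens.

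The 8 members Klf2, Klf3, Klf4, Klf5, Klf6, Klf9, Klf10 and Klf13 were taken by gene ID from the 55416 genes counted in the RNA of mouse lens epithelial cells (LECs). Their IDs are ENSMUSG00000055148 (Klf2), ENSMUSG00000029178 (Klf3), ENSMUSG00000003032 (Klf4), ENSMUSG00000005148 (Klf5), ENSMUSG00000000078 (Klf6), ENSMUSG00000033863 (Klf9), ENSMUSG00000037465 (Klf10) and ENSMUSG00000052040 (Klf13). All 8 passed the filter on low counts in every comparison, so none was lost to it.

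The study removed the lens fiber cells from living mice as a model of cataract surgery and collected the capsule with its attached LECs at 0 h or 6 h post cataract surgery (PCS). There were 3 libraries in each of 6 groups, 18 in all, and each library pooled 5 capsules of mice aged 3 to 5 months. The fellow eye of a mouse was operated 6 h after the first and both capsules were then taken, so the 0 h capsules came from mice with an injured other eye. The tissue was labelled lens capsule and the strain C57BL/6 in every group. The groups were wild type (WT), Egr1KO and FosBcKO, each at 0 h and 6 h. Egr1KO mice were homozygous in the germline for the Egr1 tm1Jmi allele, a neo cassette in exon 2, so every tissue of the eye, not the lens alone, lacked an intact Egr1, and the stock line is given as one of mixed background. FosBcKO mice carried a Fosb allele with exons 2 and 3 between lox sites (Fosb tm1.1Nes), deleted by the MLR10 cre transgene, which a modified alpha-A crystallin promoter drives in the lens. In those mice other cell types of the sample kept an intact Fosb, and the WT mice were not described as carrying the cre transgene.

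The libraries held 9609295 to 13871592 read pairs counted on genes, and 19121 to 25999 genes had at least 1 count. Levels below are read pairs of a gene per 1000000 read pairs on all genes (CPM), which are not divided by gene length, so they compare libraries for a gene and not genes with each other. Lens epithelium markers (Pax6, Foxe3, Pitx3, Prox1 and Sox2, 5 of 9 listed genes with a name) summed to 1828 to 2095 CPM in WT at 0 h and to 684 to 1037 CPM at 6 h. The sum was 550 CPM or more in every library. Prox1, with a mean of 996 CPM, was the largest part of it in WT at 0 h. By the test described below, 4 of the 5 were called lower at 6 h in WT, where 3.65% of genes tested were. The targeted genes did not check the labels. Summed over all exons, Egr1 read 107 to 285 CPM in Egr1KO at 0 h against 66.3 to 165 CPM in WT, and Fosb read 1430 to 1778 CPM in FosBcKO at 6 h against 767 to 1539 CPM in WT. Counts per gene include exons outside the disrupted parts, and the genotypes are used as labelled.

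**Figure D1:**
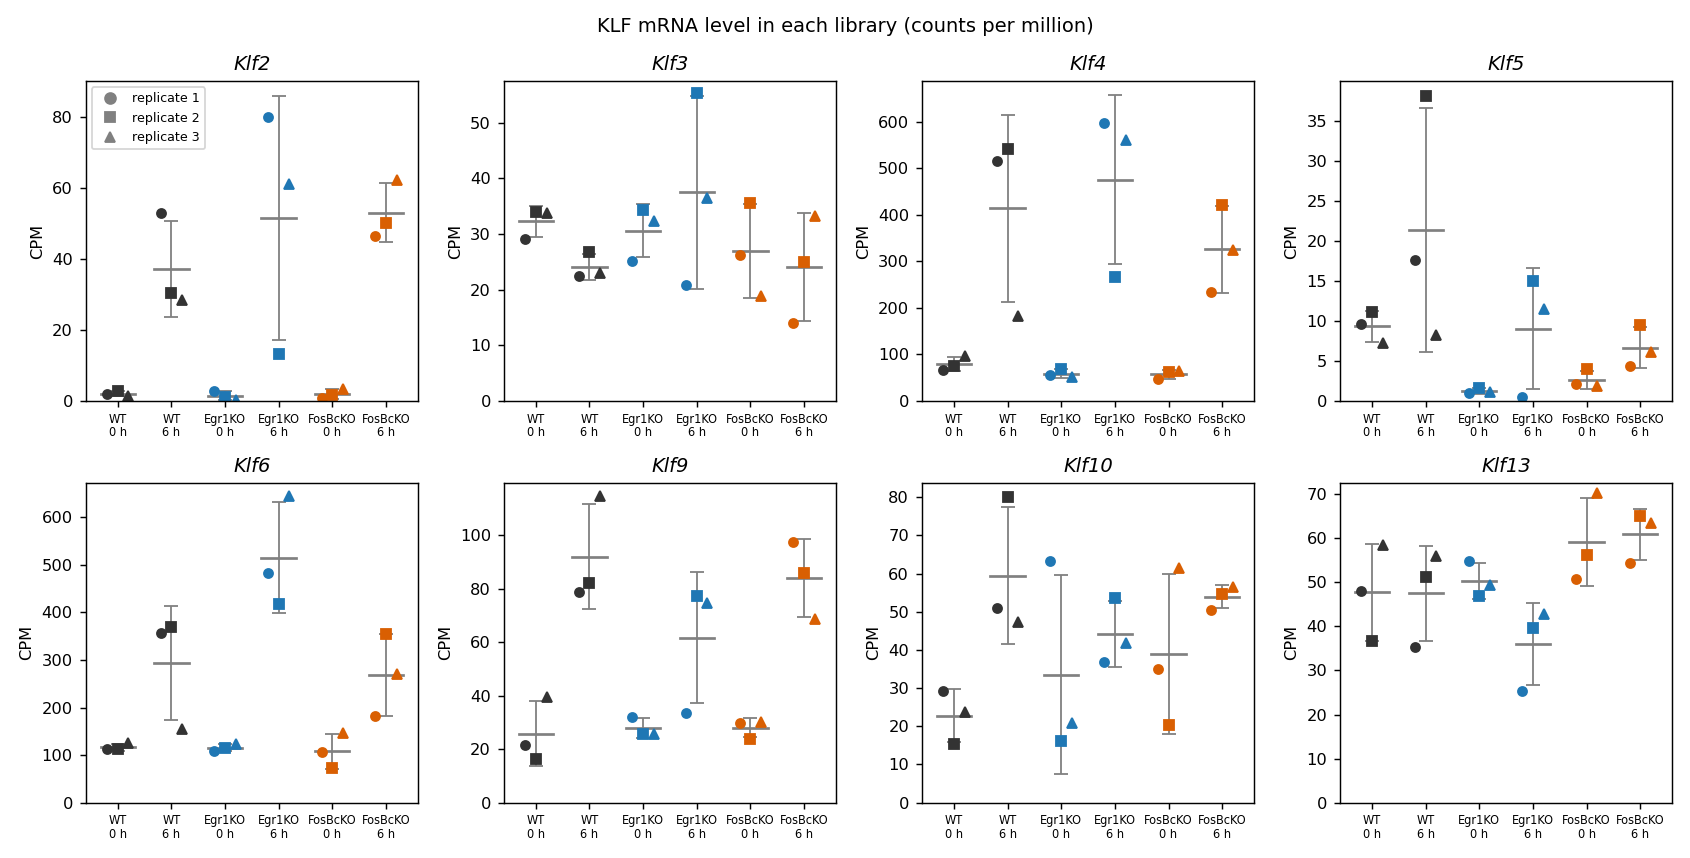
Levels of the 8 KLF genes in each of the 18 libraries, in CPM on linear axes that start at 0, by group. Each symbol is a library, shaped by replicate number, and the grey lines give the mean and SD of the 3 libraries. Klf2 and Klf4 stand higher at 6 h than at 0 h in every genotype, Klf13 stays between 25.4 and 70.4 CPM in all libraries, and Klf5 at 0 h is lower in the 6 knockout libraries (0.979 to 3.94 CPM) than in the 3 WT libraries (7.30 to 11.1 CPM).

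The first comparison asked how the family responded to lens injury in WT LECs. Klf2, Klf4, Klf6, Klf9 and Klf10 rose by 6 h PCS, from 2.38-fold for Klf6 to 17.1-fold for Klf2. None of the 8 was called lower, and Klf3, Klf5 and Klf13 did not pass the test. Genes were called where the change exceeded 2-fold and the false discovery rate (FDR) was not above 0.05. Of the 15440 genes tested, 13.5% were called higher in this comparison and 3.65% lower. The median log2 fold change was 1.27 over the 8 members and -0.02 over all genes tested.

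Klf2, the shear- and stress-induced member known for keeping endothelium and T cells quiescent, had 2.01, 2.76 and 1.26 CPM at 0 h and 52.9, 30.3 and 28.4 CPM at 6 h in WT libraries 1 to 3. All 6 h libraries lay far above all 0 h libraries. The log2 fold change was 4.09 (SE 0.39, edgeR quasi-likelihood F-test, FDR 0.00121, n = 3 against 3). Klf2 also rose in Egr1KO, from 2.77, 1.15 and 0.312 CPM to 80.0, 13.3 and 61.2 CPM, and in FosBcKO, from 0.803, 1.56 and 3.49 CPM to 46.4, 50.2 and 62.3 CPM. The groups did not overlap in either knockout, and replicate 2 of Egr1KO at 6 h was the lowest of the 9 injured libraries. The uninjured Egr1KO values rest on 34, 12 and 3 read pairs. Its log2 fold change was 5.22 (SE 0.87, FDR 0.00888) in Egr1KO and 4.76 (SE 0.44, FDR 0.000664) in FosBcKO by the same edgeR test.

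Klf2 is a well known endothelial gene, and endothelial markers also rose from 0 h to 6 h. The summed level of Pecam1, Cdh5, Kdr and Tek, the 4 of 9 listed markers with a name, was 3.11 to 7.49 CPM in WT at 0 h and 48.9 to 121 CPM at 6 h. Pecam1, Cdh5 and Kdr were all called higher at 6 h in WT by the edgeR test, with log2 fold changes of 3.70, 2.86 and 3.60 (FDR 0.00220, 0.0139 and 0.00213). In Egr1KO the sum went from 4.06 to 5.47 CPM up to 10.8 to 30.2 CPM. In FosBcKO it went from 9.44 to 15.4 CPM up to 31.2 to 97.9 CPM. Within each group at 6 h, the library with the highest sum had the least Klf2. These were replicate 3 of WT, replicate 2 of Egr1KO and replicate 1 of FosBcKO. Most of the sum at 6 h in WT was Kdr, at 63.0 CPM on average. Against WT at 6 h, Kdr was lower in Egr1KO (log2 fold change -2.05, SE 0.44, edgeR exact test, FDR 0.00516), while Pecam1 (-0.69), Cdh5 (0.71) and Tek (0.13) were not called. Red blood cell genes rose as well, their sum of 5 genes going from 4.80 to 7.10 CPM to 77.5 to 206 CPM in WT. The part of these cells in the KLF values was not tested. In such bulk samples, more cells of a type and more RNA per cell cannot be told apart.

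Klf4, a regulator of epithelial differentiation and barrier genes, had 66.9, 74.9 and 95.4 CPM at 0 h and 516, 541 and 183 CPM at 6 h in WT. The third WT library at 6 h rose far less than WT replicates 1 and 2, yet lay above every 0 h library. The log2 fold change was 2.31 (SE 0.43, edgeR quasi-likelihood F-test, FDR 0.00858). In Egr1KO Klf4 had 55.4, 68.7 and 50.5 CPM at 0 h and 597, 266 and 561 CPM at 6 h, a log2 fold change of 3.11 (SE 0.34, FDR 0.00231, edgeR). In FosBcKO it had 46.5, 62.2 and 63.8 CPM at 0 h and 233, 420 and 324 CPM at 6 h, a log2 fold change of 2.52 (SE 0.26, FDR 0.000946, edgeR). The order of the injured libraries was the same for Klf4 as for Klf2 in Egr1KO, with replicate 2 lowest and replicate 1 highest.

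Klf6, an early response gene of injured tissues, had 112, 113 and 125 CPM at 0 h and 357, 369 and 155 CPM at 6 h in WT. As for Klf4, the third WT library at 6 h was the lowest, and the groups did not overlap. The log2 fold change was 1.25 (SE 0.34, edgeR quasi-likelihood F-test, FDR 0.0302). This call was close to the limit, since leaving out any WT library but replicate 3 at 6 h ended it (edgeR, FDR 0.0802 to 0.101), the log2 fold change lying between 1.01 and 1.59. In Egr1KO Klf6 had 109, 116 and 123 CPM at 0 h and 484, 419 and 644 CPM at 6 h (log2 fold change 2.22, SE 0.21, FDR 0.000889, edgeR). FosBcKO libraries had 106, 73.0 and 146 CPM at 0 h and 182, 355 and 270 CPM at 6 h (log2 fold change 1.32, SE 0.36, FDR 0.0371, edgeR), and that call was lost without replicate 1 or 2 at 0 h or replicate 2 or 3 at 6 h (FDR 0.0792 to 0.0978) and with the replicate number as a block (FDR 0.0698).

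Klf9, an SP-like factor known as a target of glucocorticoid and thyroid hormone receptors, had 21.6, 16.3 and 39.6 CPM at 0 h and 79.0, 82.4 and 115 CPM at 6 h in WT. The third WT library was the highest at both times for Klf9, unlike for Klf4 and Klf6. The log2 fold change was 1.72 (SE 0.30, edgeR quasi-likelihood F-test, FDR 0.00634). In Egr1KO it had 32.1, 25.8 and 25.8 CPM at 0 h and 33.5, 77.4 and 74.6 CPM at 6 h, so replicate 1 lay only just above the 0 h libraries. The Egr1KO log2 fold change was 1.19 (SE 0.29, FDR 0.0260, edgeR), a call lost on leaving out any library but replicate 1 at 6 h (FDR 0.0584 to 0.106) and with the replicate number as a block (FDR 0.0533). FosBcKO had 29.8, 24.0 and 30.3 CPM at 0 h and 97.6, 85.8 and 68.9 CPM at 6 h, with a log2 fold change of 1.58 (SE 0.18, FDR 0.00102, edgeR) and no overlap.

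Klf10, known as a TGFβ-induced early gene, had 29.1, 15.3 and 23.8 CPM at 0 h and 51.0, 80.1 and 47.2 CPM at 6 h in WT. The groups did not overlap, and the log2 fold change was 1.30 (SE 0.30, edgeR quasi-likelihood F-test, FDR 0.0178). The call was lost without replicate 2 or 3 at 0 h (edgeR, FDR 0.0520 and 0.0549) and without replicate 2 at 6 h, where the log2 fold change of 0.97 was under 2-fold. In the knockouts the 0 h libraries were spread more widely. Egr1KO had 63.4, 16.0 and 20.9 CPM at 0 h and 36.8, 53.6 and 41.9 CPM at 6 h, where replicate 1 at 0 h exceeded every injured library. FosBcKO had 35.1, 20.2 and 61.6 CPM at 0 h and 50.6, 54.7 and 56.5 CPM at 6 h, where replicate 3 at 0 h did so. Klf10 passed in neither knockout, with log2 fold changes of 0.44 (SE 0.48, FDR 0.527) and 0.46 (SE 0.38, FDR 0.420) by the same edgeR test. Without replicate 1 of Egr1KO at 0 h the value was 1.30 (edgeR, FDR 0.0313).

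Klf3 and Klf13, members best known as repressors, were not called at 6 h against 0 h in any genotype. Over all 18 libraries Klf3 ranged from 14.0 to 55.4 CPM and Klf13 from 25.4 to 70.4 CPM. Klf3 had 29.1, 34.0 and 33.8 CPM at 0 h and 22.5, 26.7 and 23.0 CPM at 6 h in WT. Each injured library lay below each uninjured one, but the log2 fold change of -0.53 (SE 0.18, edgeR quasi-likelihood F-test, FDR 0.0572) did not pass. Klf13 ranged from 36.6 to 58.6 CPM at 0 h and from 35.4 to 56.1 CPM at 6 h in WT, a log2 fold change of -0.11 (SE 0.22, FDR 0.729, edgeR). In Egr1KO the log2 fold changes were 0.33 (SE 0.30) for Klf3 and -0.43 (SE 0.21) for Klf13, and in FosBcKO -0.14 (SE 0.33) and 0.04 (SE 0.18), with edgeR FDR from 0.164 to 0.883.

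Klf5, a factor of proliferating basal epithelium, had 9.57, 11.1 and 7.30 CPM at 0 h and 17.6, 38.1 and 8.29 CPM at 6 h in WT. Replicates 1 and 2 at 6 h were above all 0 h libraries and replicate 3 lay among them. The log2 fold change of 1.12 (SE 0.54, edgeR quasi-likelihood F-test, FDR 0.157) did not pass. Without replicate 3 of WT at 6 h it was 1.53 (edgeR, FDR 0.0169). In Egr1KO Klf5 went from 0.979, 1.63 and 1.14 CPM to 0.495, 15.0 and 11.5 CPM, where replicate 1 at 6 h was the lowest of all 18 libraries. The Egr1KO log2 fold change of 2.87 (SE 0.96, edgeR, FDR 0.0694) did not pass, and without replicate 1 at 6 h it was 3.40 (edgeR, FDR 0.000323). That fit called 3033 of 15469 genes, against 1746 of 14586 with all libraries. FosBcKO went from 2.14, 3.94 and 1.84 CPM to 4.38, 9.51 and 6.10 CPM without overlap, a log2 fold change of 1.37 (SE 0.47, edgeR, FDR 0.0619). With the replicate number as a block it was 1.34 and called (edgeR, FDR 0.0250).

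Counted over the family, 4 of the 8 members were called higher at 6 h in Egr1KO, where 9.28% of the 14586 genes tested were, and 4 in FosBcKO, where 11.2% of 15475 were. These were Klf2, Klf4, Klf6 and Klf9 in both. With the replicate number as a block, the called members were Klf2, Klf4 and Klf6 in Egr1KO and Klf2, Klf4, Klf5 and Klf9 in FosBcKO. Capsules of both times came from the same mice, but the labels do not say that the numbers mark them. The median log2 fold change of the 8 was 1.71 in Egr1KO and 1.34 in FosBcKO, against 0.00 and 0.05 over all genes tested.

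**Figure D2:**
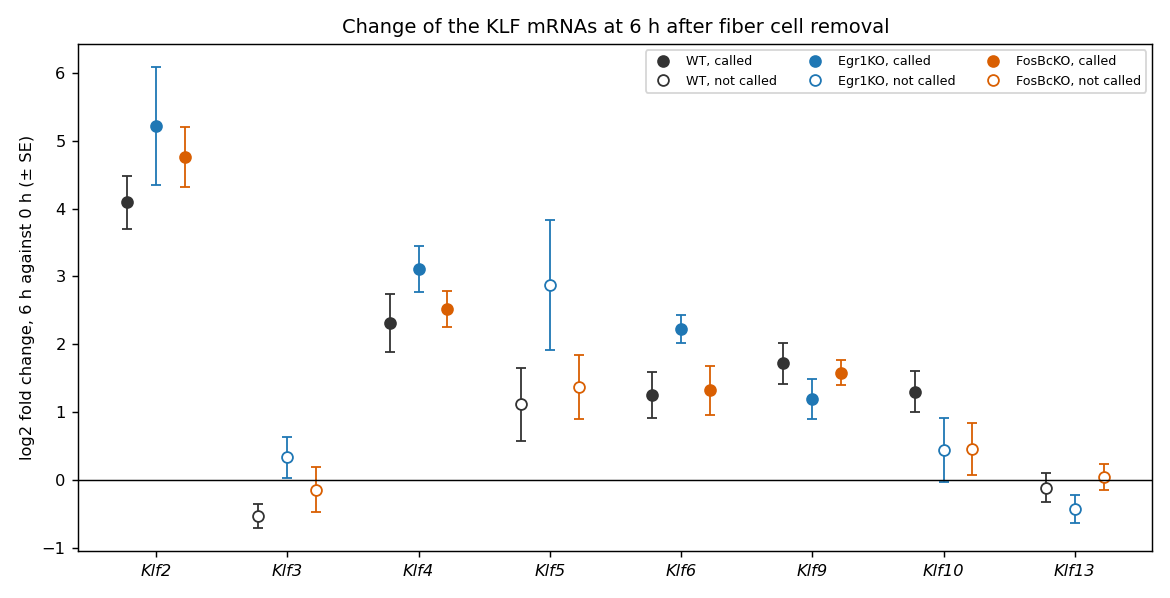
Log2 fold change of each KLF gene from 0 h to 6 h PCS in WT, Egr1KO and FosBcKO, with bars of 1 SE from the quasi-likelihood fit to either side and filled symbols where called. Klf2 is the farthest from 0 in each genotype (4.09, 5.22 and 4.76), Klf4 follows in each, and Klf3 and Klf13 lie between -0.53 and 0.33 with open symbols.

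Whether a knockout changed the response to injury was tested as an interaction of genotype and time over all 18 libraries. No member was called, and none of 17469 genes was (0% called in each of the interactions). None of the 8 members had an unadjusted p under 0.05, against 1141 genes for Egr1KO and 1171 genes for FosBcKO. The lowest member p for Egr1KO was 0.0740 (Klf3, edgeR quasi-likelihood F-test, FDR 0.772), with a difference of log2 fold changes of 0.84 (SE 0.44). For Klf6 the difference was 0.95 (SE 0.50), with a 95% interval from -0.03 to 1.92, and for Klf5 it was 1.74 (SE 1.09), from -0.40 to 3.88. For FosBcKO the lowest member p was 0.204 (Klf10, edgeR, FDR 0.837), with a difference of -0.90 (SE 0.68). Klf10 was called in WT alone, but its response was thus not shown to differ between genotypes. These intervals are wide, and differences of the size of the responses themselves were not detectable for Klf5.

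The second comparison asked whether uninjured LECs lacking Egr1 or FosB held other KLF levels than WT. Klf5 was lower at 0 h in both knockouts, 7.34-fold in Egr1KO and 3.57-fold in FosBcKO, and it was the only member called in either comparison. Both comparisons used the same 3 WT libraries, so they are not independent of each other.

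At 0 h Klf5 had 9.57, 11.1 and 7.30 CPM in WT (9.33 ± 1.92, SD, n = 3), from 100, 125 and 75 read pairs. Egr1KO had 0.979, 1.63 and 1.14 CPM (1.25 ± 0.339, SD, n = 3), from 12, 17 and 11 read pairs. FosBcKO had 2.14, 3.94 and 1.84 CPM (2.64 ± 1.13, SD, n = 3), from 24, 38 and 19 read pairs. Every knockout library lay below every WT library, and every Egr1KO library below every FosBcKO library. Counts this low make each knockout value uncertain by counting alone.

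For Egr1KO the log2 fold change of Klf5 was -2.88 (SE 0.38, edgeR exact test, FDR 2.93e-07). The share of all 14373 genes called lower was 0.32%, and 1 of the 8 members was. Leaving out each library in turn gave -3.08 to -2.71 and kept the call. A single fit of all 18 libraries shares a spread with the injured libraries and used the quasi-likelihood F-test. There the value was -2.86 and the call was lost (edgeR quasi-likelihood F-test, FDR 0.699). That fit called 2 of 17469 genes in this comparison, against 59 of 14373 in the main test.

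For FosBcKO it was -1.84 (SE 0.38, edgeR exact test, FDR 0.0128), where 0.11% of 14556 genes were called lower. This call held less firmly. It was lost with the quasi-likelihood F-test (edgeR, FDR 0.179), also with all libraries in a single fit by that test (FDR 0.979). Using no filter on low counts ended the call too (edgeR exact test, FDR 0.0587). It was also lost without WT replicate 1 or 2 (FDR 0.0977 and 0.0993) and without FosBcKO replicate 1 or 3 (FDR 0.347 and 0.292), while the value stayed between -2.21 and -1.64. DESeq2 kept it (Wald test, FDR 0.00604).

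**Figure D3:**
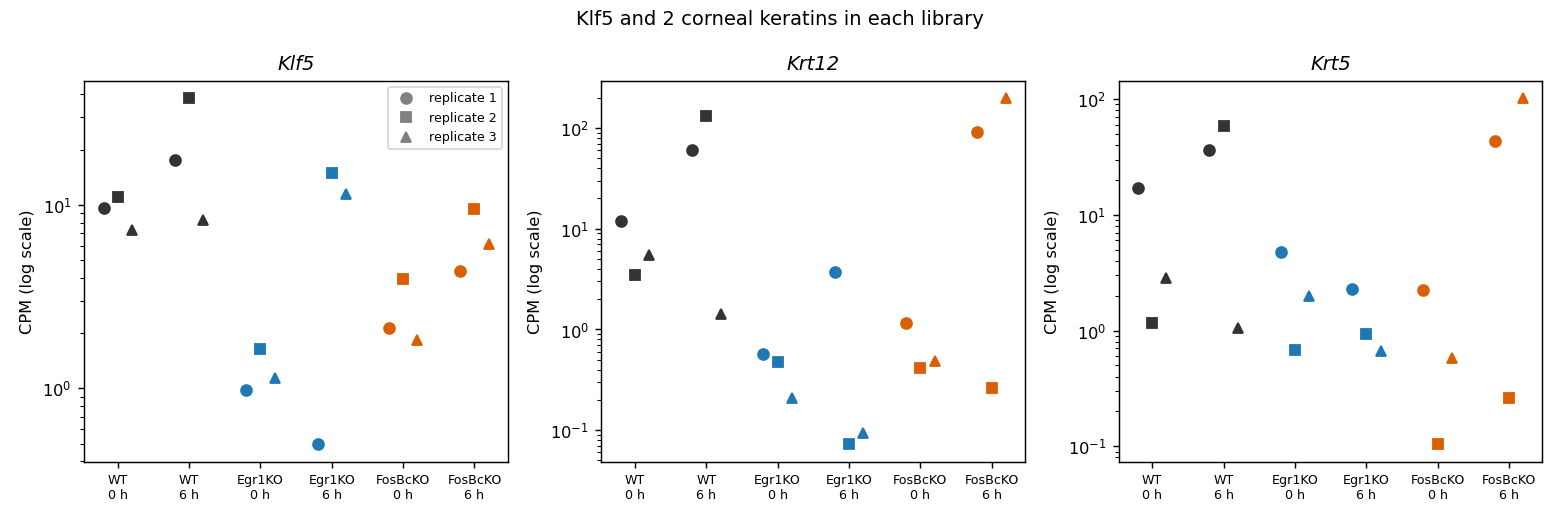
Levels of Klf5 and of the keratins Krt12 and Krt5 in each of the 18 libraries, in CPM on log axes, by group, with symbols shaped by replicate number. At 0 h the 3 WT libraries are the highest for Klf5 and for Krt12, while for Krt5 the groups overlap. At 6 h replicate 2 of FosBcKO has the most Klf5 of its group and the least Krt12 and Krt5.

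Markers of the ocular surface stood beside the Klf5 result. Krt12, a keratin of the corneal epithelium, had 11.97, 3.47 and 5.45 CPM in WT at 0 h, 0.571, 0.480 and 0.208 CPM in Egr1KO and 1.16, 0.415 and 0.485 CPM in FosBcKO. It was called lower in both knockouts, with log2 fold changes of -3.97 (SE 0.60, edgeR exact test, FDR 2.41e-06) and -3.31 (SE 0.61, FDR 0.000576). The sum over the 6 of 12 listed cornea and conjunctiva markers with a name (Krt12, Krt5, Krt19, Aldh3a1, Dsg1a and Perp) was 1026 to 1316 CPM in WT at 0 h, 1282 to 1840 CPM in Egr1KO and 983 to 1185 CPM in FosBcKO. Most of this sum was Aldh3a1, with means of 978, 1412 and 923 CPM, so it says little of the keratins. Krt5, a keratin of basal epithelium, had means of 6.97, 2.46 and 0.972 CPM in WT, Egr1KO and FosBcKO at 0 h. Its log2 fold changes were -1.46 (SE 1.25, edgeR exact test, FDR 0.964) and -2.82 (SE 1.35, unadjusted p 0.0424, FDR 0.856). Krt19, Aldh3a1, Dsg1a and Perp were not called at 0 h in either knockout, with log2 fold changes from -0.39 to 0.78. At 6 h Krt12 had 60.7, 131 and 1.43 CPM in WT, and Klf5 was ordered the same way over these libraries. In FosBcKO at 6 h Krt12 had 91.1, 0.259 and 198 CPM, and there the library with the least Krt12, replicate 2, had the most Klf5. In Egr1KO at 6 h Krt12 ranged from 0.0721 to 3.76 CPM, while Klf5 ranged from 0.495 to 15.0 CPM. The part of surface epithelium in the Klf5 values was not tested.

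The other 7 members were not called at 0 h in either knockout. Klf4 was the nearest, with 50.5 to 68.7 CPM in Egr1KO and 46.5 to 63.8 CPM in FosBcKO against 66.9 to 95.4 CPM in WT. Every FosBcKO library lay below every WT library, while Egr1KO overlapped WT. The log2 fold change of Klf4 was -0.42 (SE 0.14, unadjusted p 0.0195, edgeR exact test, FDR 0.543) in Egr1KO and -0.46 (SE 0.16, unadjusted p 0.0200, FDR 0.718) in FosBcKO. Klf6 had means of 117, 116 and 108 CPM in WT, Egr1KO and FosBcKO, with a 95% interval of the log2 difference from -0.17 to 0.20 for Egr1KO. Between the knockouts at 0 h no member was called by the edgeR exact test or had an unadjusted p under 0.05, where 0.96% of 14167 genes were called. Klf5 was higher in FosBcKO than in Egr1KO by 1.05 on the log2 scale there (SE 0.59, edgeR exact test, FDR 0.714).

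**Figure D4:**
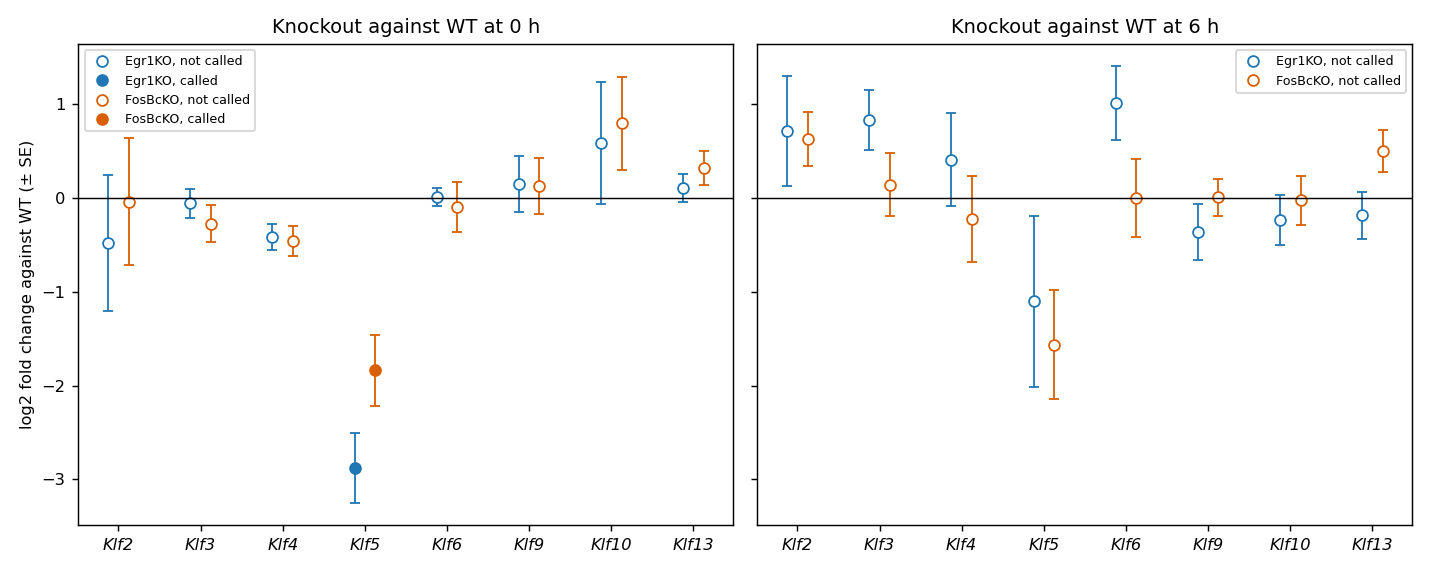
Log2 fold change of each KLF gene against WT at 0 h (left) and at 6 h (right), for Egr1KO and FosBcKO, with bars of 1 SE from the quasi-likelihood fit to either side and filled symbols where called. Klf5 at 0 h is the only filled symbol in each knockout (-2.88 and -1.84), and at 6 h all symbols are open.

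The third comparison set the knockouts against WT at 6 h PCS, and no member was called in either. In Egr1KO 0.736% of 15618 genes were called, and 2 of the 8 members had an unadjusted p under 0.05. These were Klf6, with 484, 419 and 644 CPM against 357, 369 and 155 CPM in WT, and Klf3, with 20.8, 55.4 and 36.4 CPM against 22.5, 26.7 and 23.0 CPM. All Klf6 values of Egr1KO lay above those of WT, with a log2 fold change of 1.01 (SE 0.40, edgeR exact test, FDR 0.325). Klf3 overlapped, with 0.83 (SE 0.32, FDR 0.376, edgeR exact test). Klf9 went the other way without overlap, with 33.5 to 77.4 CPM in Egr1KO against 79.0 to 115 CPM in WT, and was not called. Single libraries decided calls here. Without Egr1KO replicate 1 Klf3 was called (log2 fold change 1.11, edgeR exact test, FDR 0.0235), and without Egr1KO replicate 2 Klf2 was (1.19, FDR 0.0280). More genes of any kind were called in these fits, 186 of 16328 and 946 of 16314, against 115 of 15618 with all libraries.

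In FosBcKO at 6 h 5.41% of 16155 genes were called against WT, and 1 of the 8 members, Klf5, had an unadjusted p under 0.05. Klf5 had 4.38, 9.51 and 6.10 CPM against 17.6, 38.1 and 8.29 CPM in WT, overlapping in the lowest WT library. The log2 fold change was -1.56 (SE 0.58, edgeR exact test, FDR 0.109), and without WT replicate 3 it was -2.00 and called (edgeR exact test, FDR 0.00107). Klf2 differed by 0.63 (SE 0.29, FDR 0.307) and Klf13 by 0.50 (SE 0.22, FDR 0.341). Klf4, Klf6 and Klf9 differed by -0.23 (SE 0.46), 0.00 (SE 0.42) and 0.01 (SE 0.20). Leukocyte markers were higher in these FosBcKO libraries, their sum over 7 genes being 47.0 to 54.3 CPM against 17.0 to 24.8 CPM in WT, and 5 of 7 were called.

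Between the knockouts at 6 h, where 2.5% of 15885 genes were called, no member was called and Klf6 and Klf13 had an unadjusted p under 0.05. Klf6 had 182, 355 and 270 CPM in FosBcKO, below each Egr1KO library, a log2 difference of -1.02 (SE 0.32, edgeR exact test, FDR 0.105). It was called without Egr1KO replicate 2 (-1.19, edgeR exact test, FDR 0.0310) or without FosBcKO replicate 2 (-1.36, FDR 0.0336). Those fits called 599 of 16657 and 308 of 16750 genes, against 397 of 15885 with all libraries. Klf13 had 54.3, 65.1 and 63.4 CPM in FosBcKO and 25.4, 39.6 and 42.9 CPM in Egr1KO, without overlap. Its log2 difference was 0.67 (SE 0.23, edgeR exact test, FDR 0.298).

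How the members varied together among libraries of the same group was described from the deviations of log2 CPM from each group's mean, a description chosen after seeing the data. The 18 deviations have 12 degrees of freedom and share their libraries, so the correlations carry no test. Klf4 and Klf6 deviated together (r = 0.81), as did Klf9 and Klf13 (r = 0.72) and Klf3 and Klf5 (r = 0.73).

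**Figure D5:**
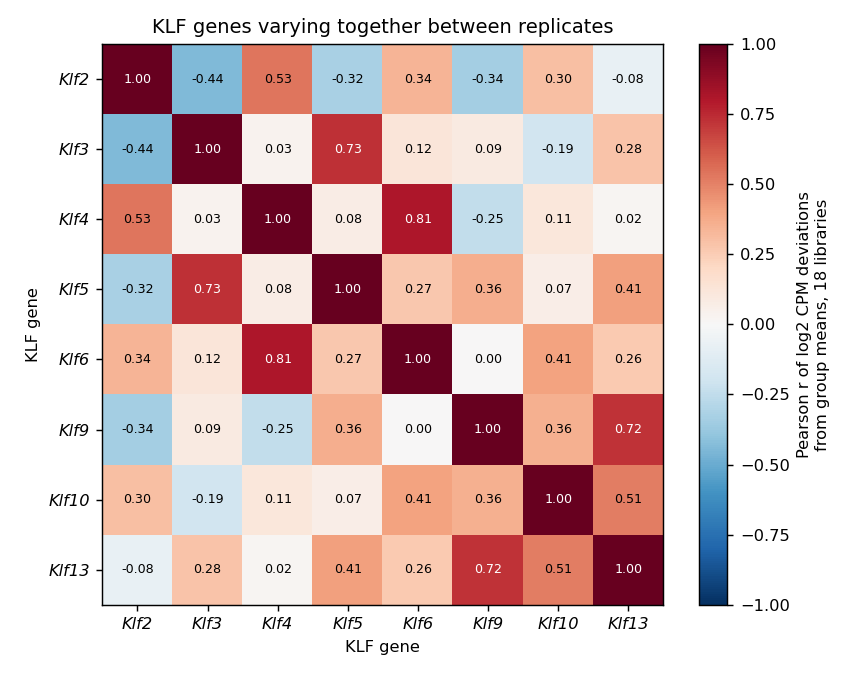
Pearson r between each pair of KLF genes, over the deviations of log2 CPM from the group means in the 18 libraries. Klf4 with Klf6 (0.81), Klf3 with Klf5 (0.73) and Klf9 with Klf13 (0.72) have the highest values, and Klf2 with Klf3 (-0.44) the lowest.

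The genes whose levels were most like each member over all 18 libraries, without removing group means, were ranked by Pearson r of log2 CPM among the 6550 named genes of 17469. The 0 h and 6 h libraries lie apart for most of these genes, so a high r here mainly follows the time points. For Klf2 they were Maff (r = 0.974), Fosb (0.959) and Jmjd1c (0.958), and Maff and Fosb are also immediate early genes. For Klf4 they were Lmna (0.974), Arhgef2 (0.974) and Jmjd1c (0.973), and for Klf6 they were Mcl1 (0.964), Tpm3 (0.961) and Frat2 (0.948). Hspb6 (0.961), Ago2 (0.955) and Slc9a7 (0.947) were most like Klf9. For Klf10 they were Tnfaip3 (0.854), Nfkbia (0.843) and Csrnp1 (0.840), of which Tnfaip3 and Nfkbia encode inhibitors of NF-κB signalling. Klf5 was nearest to Alpk2 (0.906), Angpt4 (0.870), Igf2bp2 (0.862), Gcnt4 (0.859) and Plcd1 (0.858). Klf3 and Klf13 had weaker neighbours, Tmem43 (0.841), 1600012H06Rik (0.834) and Tagln2 (0.818) for Klf3 and Mageh1 (0.755), Sorbs3 (0.728) and Csrp1 (0.721) for Klf13.

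Of 18 further KLF and SP genes listed, 4 could be matched to a name, Klf7, Klf8, Klf15 and Klf16. The names came from tables the study made of its results, so which genes have one is not independent of how they moved. Klf7 rose at 6 h in all genotypes, with log2 fold changes of 1.09 in WT (SE 0.28, edgeR quasi-likelihood F-test, FDR 0.0235), 1.47 in Egr1KO (FDR 0.0140) and 1.27 in FosBcKO (FDR 0.0188). Klf15, a metabolic and glucocorticoid-induced member, fell in WT from 22.5, 17.0 and 39.2 CPM to 7.54, 4.54 and 5.43 CPM, without overlap. Its log2 fold change there was -2.26 (SE 0.35, edgeR quasi-likelihood F-test, FDR 0.00376). In Egr1KO it had 29.2, 36.9 and 36.0 CPM at 0 h and 16.8, 2.45 and 7.72 CPM at 6 h, a log2 fold change of -1.84 (SE 0.59, FDR 0.0632, edgeR). In FosBcKO it had 41.1, 33.5 and 33.6 CPM at 0 h and 17.8, 18.5 and 23.3 CPM at 6 h, a log2 fold change of -0.86 (SE 0.19, FDR 0.0126, edgeR) that was under 2-fold. At 6 h it was higher in FosBcKO than in WT by 1.89 on the log2 scale (SE 0.28, edgeR exact test, FDR 1.35e-06). The interaction of FosBcKO and time was not called for Klf15 (1.35, SE 0.66, edgeR quasi-likelihood F-test, FDR 0.746). Its response to injury was thus not shown to differ between these genotypes. Klf8 and Klf16 were not called in any comparison.

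The MEK5 to ERK5 to MEF2 pathway is known to induce Klf2 and Klf4. Of 9 genes listed as upstream of Klf2 and Klf4, 4 had a name. In WT at 6 h Mef2c and Mef2d, the transcription factors of this pathway, rose with log2 fold changes of 3.00 (SE 0.46, edgeR quasi-likelihood F-test, FDR 0.00416) and 2.00 (SE 0.23, FDR 0.00171). Mapk7, which encodes ERK5, fell by 1.23 on the log2 scale (SE 0.22, edgeR, FDR 0.00588), and Krit1 did not pass. Mef2c and Mef2d were also called higher at 6 h in Egr1KO (2.72 and 1.38) and in FosBcKO (1.96 and 1.02). Mef2c is also expressed by endothelium and muscle, and its levels at 6 h were 58.0, 41.9 and 101 CPM in WT.

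Glucocorticoid-induced genes, listed because Klf9 and Klf13 belong to hormone-responsive members, were 7 of 7 named. In WT at 6 h Sgk1 rose with a log2 fold change of 1.01 (edgeR quasi-likelihood F-test, FDR 0.0272), while Tsc22d3 and Fkbp5 fell by 1.18 (FDR 0.0281) and 1.08 (FDR 0.0334). The other 4 were not called, where 13.5% of all 15440 genes tested were called higher and 3.65% lower. In Egr1KO 1 was called higher and 1 lower, where 9.28% of all genes tested were called higher. In either direction 1746 of 14586 genes were called there. In FosBcKO 1 was called higher, where 11.2% of 15475 genes were. Of the KLF cofactors and protein regulators, 3 of 14 had a name and none was called in WT at 6 h. Fhl3 rose in FosBcKO at 6 h (log2 fold change 2.66, edgeR quasi-likelihood F-test, FDR 0.0194). Against WT at 6 h, where 5.41% of genes were called, FosBcKO had more Zbtb16 and Fbxo32. Their log2 fold changes were 2.46 (SE 0.40, edgeR exact test, FDR 1.28e-06) and 1.10 (SE 0.21, FDR 0.000957).

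Of the remaining marker lists, stroma and smooth muscle genes summed to 612 to 658 CPM in WT at 0 h and 181 to 334 CPM at 6 h. Most of the sum at 0 h was Acta2, Pdgfra and Pdgfrb, with means of 265, 175 and 149 CPM. It therefore says little of Col1a1, Dcn and Myh11, with means of 5.93, 3.37 and 14.9 CPM. Which cells these RNAs came from, LECs included, was not tested. Pigment cell genes, which neighbouring iris and ciliary tissue express, summed to 14.0 to 94.4 CPM in WT at 0 h and 35.5 to 173 CPM at 6 h. Their sum at 6 h was 94.9 to 311 CPM in Egr1KO and 164 to 355 CPM in FosBcKO. Leukocyte genes ranged from 1.87 to 30.8 CPM in WT at 0 h, and the lens fiber genes Crygb and Crygf from 98.3 to 140 CPM in WT at 0 h and 0.403 to 11.9 CPM at 6 h. Replicate 1 of Egr1KO at 6 h, low in Klf5 and Klf9 and highest in Klf2 and Klf4 among its group, had the highest lens epithelium sum of that group, 1613 CPM.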

How the data were processed

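Stranded, ribodepleted paired-end RNA-seq libraries were prepared from pooled lens capsules. The authors aligned read pairs with HISAT2 and deposited raw counts of read pairs per Ensembl gene from HTSeq in union mode. The study's methods name the GRCm38 build and the submitters' processing notes GRCm39, so no coordinates are given. HTSeq summary lines, including 8.03% to 30.5% of pairs outside genes, were left out. No molecular identifiers are stated, so PCR copies count separately and p-values measure only the spread between pooled samples. Members were matched by ID. Other names came from ID and symbol pairs of the study's supplementary tables (7025 IDs), since RefSeq matched 0 of 55416. In R 4.3.3, edgeR 4.0.16 was run with filterByExpr, TMM and robust dispersions on the libraries of each contrast, following the study's methods. The quasi-likelihood F-test served for time, the exact test for genotype, and the Benjamini-Hochberg FDR covered all genes tested. Standard errors and 95% intervals (normal approximation) come from the quasi-likelihood fit. Scripts were tested on simulated data.

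The genes named are the 8 members, called genes of the lists, the targeted genes, markers beside a result, and the 3 genes (5 for Klf5) most like each member. Members and lists were chosen with earlier results of these data known. Same-numbered WT libraries at 0 h and 6 h deviated together (r 0.127 to 0.324 over genes), and the fit with this block changed no WT call of a member. Capsules of both times came from the same mice, but the labels do not say whether the numbers mark them, and over all genotypes 6 of 9 such pairs were above 0.1. Alternatives were the other edgeR test, DESeq2 1.42.0, RLE factors, no filter, no fold minimum, all 18 libraries in one fit, the block, and library totals. Each library was also left out in turn. The block and the fit of all 18 libraries used the quasi-likelihood F-test throughout.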

Additional observations from a re-analysis of the deposited data

How the results depend on the processing

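Of 162 recomputed counts of called members, 144 stayed within 1.5 times the reported count. These include the comparisons with a reported count of 0, where no call could be lost. For Egr1KO against WT at 0 h the count went from 1 to 0 with all 18 libraries in one fit and with the replicate block (Klf5 FDR 0.0582). For FosBcKO against WT at 0 h it went from 1 to 0 with the quasi-likelihood F-test, no filter, all 18 libraries in one fit and the replicate block (Klf5 FDR 0.122). Genotype libraries share only a number, since 5 of 18 same-numbered pairs correlated above 0.1, and the cause was not tested. The block also ended the calls of Klf9 in Egr1KO (FDR 0.0533) and Klf6 in FosBcKO (FDR 0.0698) at 6 h against 0 h, where the labels do not say that the numbers mark the same mice and not all same-numbered pairs correlated above 0.1. It gave a call of Klf5 in FosBcKO (FDR 0.0250). Leaving out each library gave 3 to 6 called members in WT at 6 h against 0 h, 3 to 5 in Egr1KO, 3 to 4 in FosBcKO, 1 to 1 for Egr1KO and 0 to 1 for FosBcKO against WT at 0 h, and 0 to 1 in each comparison of genotypes at 6 h. In WT the 3 calls left without WT replicate 2 or 3 at 0 h, or replicate 2 at 6 h, were Klf2, Klf4 and Klf9. Klf4 in WT (FDR 0.0515) and Klf2 in Egr1KO (FDR 0.0649) lost their call with no filter, and Klf10 in WT with all 18 libraries (FDR 0.0568). Klf5 at 6 h against 0 h was called by the exact test in Egr1KO (FDR 0.0191) and FosBcKO (FDR 0.0317) and by DESeq2 (FDR 0.00490 and 0.0300). Over all 8 members and all comparisons, 1172 of 1296 recomputed values kept direction and call, 32 lost a call, 15 gained 1 and 77 changed sign. Most of the 1296 belong to members that were uncalled in the main test, so they had no call to lose. Of the values reported, those that changed sign lay near 0 and were uncalled. With library totals, chosen after seeing the data, Klf6 was -0.014 in Egr1KO against WT at 0 h and Klf9 -0.13 in FosBcKO against WT at 6 h, while the median of all genes moved by 0.11 in WT at 6 h against 0 h, and by -0.21 in Egr1KO and -0.12 in FosBcKO against WT at 6 h. In FosBcKO against WT at 6 h, Klf9 was -0.030 with DESeq2, -0.03 with RLE, -0.014 with no filter and -0.066 with all 18 libraries, and Klf6 was 0.051 with the block. Leaving out each library gave ranges across 0 for Klf13 in WT (-0.27 to 0.049) and in FosBcKO (-0.10 to 0.18) and Klf3 in FosBcKO (-0.49 to 0.11) at 6 h against 0 h, for Klf6 in Egr1KO against WT at 0 h (-0.062 to 0.063), and in FosBcKO against WT at 6 h for Klf4 (-0.63 to 0.045), Klf6 (-0.37 to 0.26) and Klf9 (-0.079 to 0.13). Depth limited Klf2 at 0 h and Klf5, whose lowest libraries held 3 and 5 read pairs.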
